A study of Rattus norvegicus with 14 samples.

Results

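Interferon-stimulated genes are genes whose transcription rises when a cell receives an interferon signal. The 10 measured here are Irf7, Irf9, Irf1, Isg15, Usp18, Mx1, Mx2, Ifit2, Ifit3 and Rsad2, out of 30562 genes in the deposited rat tables, chosen by gene symbol and each matched to 1 row. They were followed in 14 bulk RNA sequencing libraries from dorsal root ganglia, the clusters of sensory nerve cell bodies beside the spinal cord, taken from lumbar levels L2 to L5 of 7 wild-type (WT) male rats. In each rat the extensor digitorum longus, a lower leg muscle, had been grafted onto the saphenous nerve, a skin nerve of the leg, in a single hindlimb, and the opposite limb had no operation. Ganglia of the surgical side and of the control side were sequenced 8 weeks after the graft (rats C, D, G and H) or 6 weeks after it (rats A, B and E), so that the control ganglia come from operated animals. There was no unoperated animal and no nerve-only or sham operation among the libraries, the strain is not given in the labels, and each library is bulk tissue from 1 side of 1 rat. Replicates are therefore animals.

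Cells that detect foreign nucleic acid release type I interferons, which bind a receptor made of Ifnar1 and Ifnar2 and act through the kinases Jak1 and Tyk2. The resulting complex, which holds Stat2 and Irf9, binds the interferon-stimulated response element of target genes. Interferon gamma acts through its own receptor and through a different element, the gamma-activated site. In ganglia, neurons, satellite glia, Schwann cells and resident macrophages can all respond. In bulk tissue, fewer cells of a type and less RNA per cell cannot be told apart.

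RefSeq promoter windows of assembly GRCr8, running from 250 bases before to 50 after the gene start, were at hand for 6 of the 10 genes: Irf7, Irf9, Irf1, Mx1, Ifit3 and Rsad2. The interferon-stimulated response element was searched as GAAA, any 2 bases and GAAA again, and the gamma-activated site as TTC, any 3 bases and GAA, each on both strands. The first was found in 3 of the 6 windows, those of Irf7, Ifit3 and Rsad2, and in 1312 of all 33469 windows (3.92%). The second was found in 2 of the 6, those of Irf9 and Irf1, and in 2970 of all windows (8.87%). No window of the 6 genes held both motifs. The stretches below show the matched letters in capitals with 50 bases on each side. A match is a run of letters and not a measured binding site.
Irf7, chr1:205800033-205800142, minus strand, match starting at position -69 from the gene start: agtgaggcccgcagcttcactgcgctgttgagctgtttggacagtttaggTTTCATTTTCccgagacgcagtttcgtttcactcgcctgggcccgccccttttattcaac
Ifit3, chr1:241527232-241527341, plus strand, position -44: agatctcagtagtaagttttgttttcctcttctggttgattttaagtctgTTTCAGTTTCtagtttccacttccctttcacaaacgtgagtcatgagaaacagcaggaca
Rsad2, chr6:48788208-48788317, minus strand, position -147: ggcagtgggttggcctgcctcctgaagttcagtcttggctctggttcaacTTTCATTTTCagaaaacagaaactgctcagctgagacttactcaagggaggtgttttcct
Irf9, chr15:33065687-33065795, plus strand, position -99: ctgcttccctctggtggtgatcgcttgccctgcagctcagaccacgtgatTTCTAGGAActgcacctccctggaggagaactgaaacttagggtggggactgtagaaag
Irf1, chr10:38417743-38417851, plus strand, position -142: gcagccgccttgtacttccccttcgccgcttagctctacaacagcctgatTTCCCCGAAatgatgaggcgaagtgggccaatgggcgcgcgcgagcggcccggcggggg

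The libraries held 18489118 to 28237574 estimated counts each. Sensory neuron markers were detected in every library, with none of the 16 at 0. On the surgical side their summed level lay between 1900 and 28500 TPM (transcript abundance relative to the library, corrected for transcript length). On the control side it lay between 2920 and 26400 TPM. The lowest of these sums were on the surgical side of rat A (1900 TPM) and the control side of rat B (2920 TPM). The medians were 17100 TPM for surgical and 18400 TPM for control libraries. Several libraries stand apart in markers of other tissues. The 10 skeletal muscle markers summed to 32400 TPM on the surgical side of rat C, to 1340 TPM on the surgical side of rat E and to 6130 TPM on the control side of rat H, against medians of 125 TPM for surgical and 47.3 TPM for control libraries, and 12 spinal cord markers reached 394 TPM on the surgical side of rat B. The 10 neutrophil markers summed to 3330 to 25500 TPM in surgical and to 2810 to 24600 TPM in control libraries, and 8 red blood cell markers to 32800 to 165000 TPM and 26800 to 155000 TPM. In every library the red blood cell sum was above the sensory neuron sum. The neutrophil sum was above it on both sides of rats A and B. It was also above it on the surgical side of rat C and the control side of rat H.

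All 10 genes were detected in every library, at low to moderate levels per transcript length. Rsad2, which encodes viperin, an enzyme that makes a chain-terminating nucleotide, had the highest median, 38.8 TPM on the surgical side and 19.9 TPM on the control side. Usp18, a protease that removes Isg15 from proteins and blocks the type I receptor, had the lowest, 3.53 TPM on the surgical side and 2.52 TPM on the control side. Over all 14 libraries the medians ran Rsad2, Mx2, Irf7, Irf9, Irf1, Ifit3, Mx1, Ifit2, Isg15 and Usp18. Neighbours in this order overlap in their ranges: Mx2 spanned 4.97 to 24.8 TPM, Irf7 10.3 to 24.5 TPM and Irf9 8.91 to 17.1 TPM. Irf9 was the steadiest of the 10, with a coefficient of variation of 18.2% over the 14 libraries, and Rsad2 the most variable, at 69.3%.

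**Figure D1:**
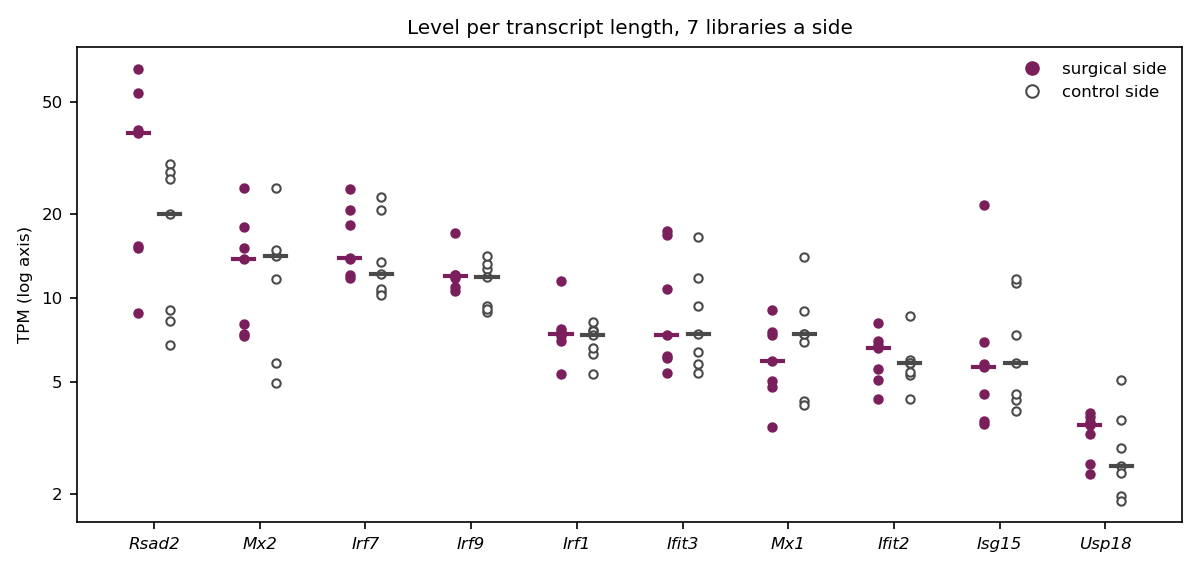
Level of the 10 genes in TPM (log axis), with 1 point per library, filled for the 7 surgical and open for the 7 control libraries, and a bar at each side's median. The surgical and control points overlap for every gene, and Rsad2 has the widest range, 6.83 to 66 TPM.

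With rat as a block and both times together, none of the 10 genes passed the test between the surgical and the control side. Differences are on the log2 scale from edgeR's quasi-likelihood test, surgical minus control, with a threshold of 0.05 on the Benjamini-Hochberg adjusted p. Of 17035 genes tested, 0 (0%) passed, 412 had an unadjusted p under 0.05 (2.42%), and DESeq2 called 4 of 26961 genes (0.0148%), none of them among the 10. The difference was above 0 for 8 of the 10 genes, against 50.1% of all genes tested, with a median of 0.10 against 0.00 over all genes. The surgical and control ranges overlapped for all 10.

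None of the 3 regulators passed the test. Irf7, the factor that amplifies type I interferon production, had a median of 27.0 CPM (counts relative to library size, with TMM scaling) in a range of 16.0 to 40.7 CPM on the surgical side, against a median of 20.3 CPM in a range of 13.9 to 59.3 CPM on the control side. The difference was 0.18 (SE 0.26, edgeR adjusted p = 1), and 3 of 7 rats had the higher surgical value. Irf9, the DNA-binding part of the type I complex, had a median of 17.6 CPM in a range of 14.9 to 29.4 CPM on the surgical side, against 16.8 CPM in a range of 14 to 21.2 CPM on the control side, a difference of 0.13 (SE 0.17). Irf1, a factor induced by interferon gamma, had a median of 14.3 CPM in a range of 9.22 to 27.7 CPM on the surgical side, against 13.9 CPM in a range of 11 to 27.4 CPM on the control side, a difference of 0.09 (SE 0.24). Rat C had the highest surgical value of Irf9 and of Irf1, and for Irf7 only rat B had a higher one. Without rat C the differences were -0.01 for Irf7, -0.01 for Irf9 and -0.11 for Irf1.

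Isg15, a ubiquitin-like protein that is attached to other proteins, had the widest disagreement between rats apart from Rsad2. At 8 weeks it stood at 9.33, 1.25, 2.43 and 1.75 CPM on the surgical side of rats C, D, G and H, against 1.44, 1.44, 1.87 and 2.57 CPM on their control side. At 6 weeks it stood at 2.50, 1.41 and 2.14 CPM on the surgical side of rats A, B and E, against 2.11, 6.82 and 4.59 CPM on their control side. The surgical library of rat C and the control library of rat B were the highest of the 14, on opposite sides. The difference over both times was -0.16 (SE 0.53), and without rat B it was 0.20. Isg15 rested on 29 to 204 estimated counts per library, the smallest numbers of the 10 genes.

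Usp18 stood at 5.76, 3.31, 4.50 and 4.45 CPM at 8 weeks on the surgical side of rats C, D, G and H, against 2.93, 2.29, 2.79 and 3.71 CPM on their control side. At 6 weeks it stood at 7.61, 3.38 and 4.44 CPM on the surgical side of rats A, B and E, against 3.83, 11.4 and 5.30 CPM on their control side. The surgical value was thus the higher in 5 of 7 rats, the exceptions being rats B and E, and at least 5 of 7 rats had the higher surgical value for 19.6% of all genes tested. Over both times the difference was 0.23 (SE 0.34).

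**Figure D2:**
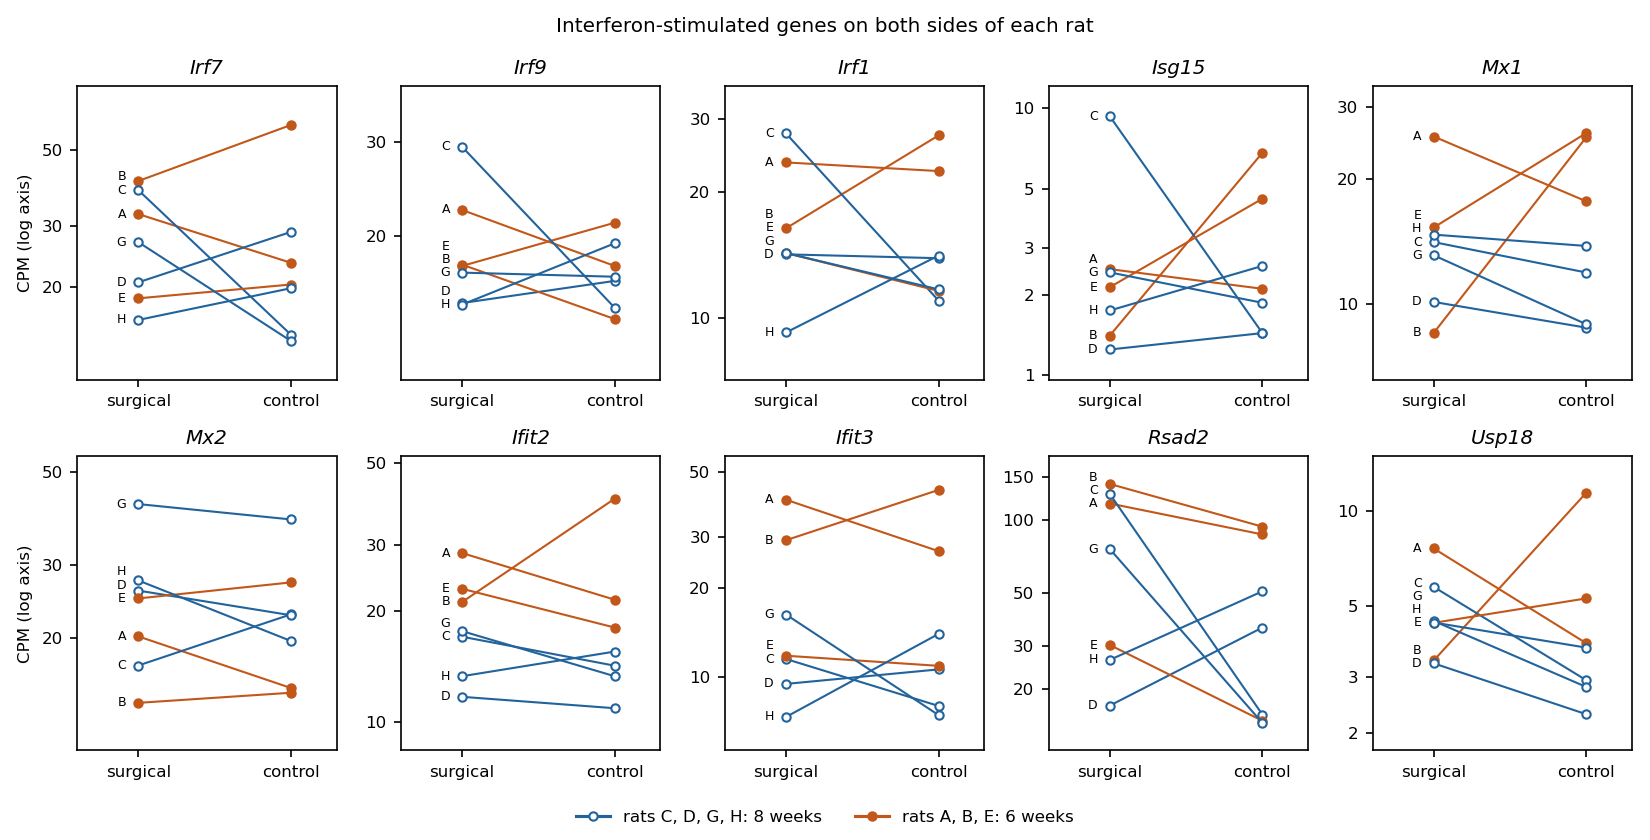
CPM (log axis) of each gene on the surgical side (left) and the control side (right), with a line for each rat, open blue points for the 4 rats at 8 weeks and filled orange points for the 3 rats at 6 weeks. Lines of the same gene slope in both directions, and the steepest falls towards the control side are those of Rsad2 in rats C and G and of Isg15 in rat C.

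The Mx genes encode dynamin-like GTPases that trap viral particles. Mx1, whose protein is nuclear in rat, stood at 14.1, 10.1, 13.1 and 14.7 CPM at 8 weeks on the surgical side of rats C, D, G and H, against 11.9, 8.75, 8.92 and 13.8 CPM on their control side. At 6 weeks it stood at 25.4, 8.50 and 15.3 CPM on the surgical side of rats A, B and E, against 17.7, 25.3 and 25.9 CPM on their control side. For Mx1 5 of 7 rats had the higher surgical value, yet its difference over both times was -0.09 (SE 0.27). Rats B and E had the largest differences in size, and both were negative, at -1.56 and -0.76. Mx2, whose protein is cytoplasmic in rat, had 14 to 41.9 CPM on the surgical side, against 14.8 to 38.5 CPM on the control side, and the smallest spread of its rat differences, an SD of 0.31 over 7 rats. Its difference was 0.09 (SE 0.13).

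The Ifit proteins bind foreign RNA and block its translation. Ifit2 had a median of 17.6 CPM in a range of 11.7 to 28.6 CPM on the surgical side, against 15.5 CPM in a range of 10.9 to 40.1 CPM on the control side, a difference of 0.06 (SE 0.18). Ifit3 had a median of 11.8 CPM in a range of 7.30 to 40.1 CPM on the surgical side, against 10.9 CPM in a range of 7.41 to 43.3 CPM on the control side, a difference of 0.10 (SE 0.25). Ifit2 and Ifit3 are neighbours on chromosome 1 and members of a family of similar genes. Mx1 and Mx2 are also members of a single family and lie on chromosome 11, with Fam3b between them. Reads shared between family members would have been apportioned by the authors' estimation, and their split is uncertain.

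Rsad2 had the largest difference of the 10 genes over both times, 0.76 (SE 0.53, edgeR adjusted p = 1), and did not pass the test. At 8 weeks it stood at 128, 17.0, 75.7 and 26.3 CPM on the surgical side of rats C, D, G and H, against 15.6, 35.8, 14.4 and 50.6 CPM on their control side. At 6 weeks it stood at 117, 141 and 30.3 CPM on the surgical side of rats A, B and E, against 87.1, 93.8 and 14.7 CPM on their control side. The surgical value was the higher in 5 of 7 rats, most in rats C and G, and lower in rats D and H. Without rat C the difference was 0.39 over both times and 0.02 at 8 weeks, without rat G it was 0.47 and 0.16, and without rats B, C and H it was 0.70 and 0.66. That last fit keeps rat E, whose surgical library also carried muscle markers, and without rat E alone the difference was 0.70 over both times and 0.85 at 8 weeks. The SD of its log2 CPM over the 14 libraries, 1.24, was at the 94.8th percentile of the 17035 genes tested.

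Markers of neutrophils, and those of several other cell types, moved with Rsad2 across the rats. The mean log2 level of the 10 neutrophil markers on the surgical side less that on the control side was 3.26, -1.28, 2.60 and -0.84 in rats C, D, G and H, and 0.16, -0.05 and 1.01 in rats A, B and E. The Rsad2 differences of the same rats were 3.03, -1.07, 2.38 and -0.94, and 0.42, 0.59 and 1.05. Over the 7 rats Pearson's r was 0.99 (exact permutation p = 0.000397, adjusted p = 0.0397) and Spearman's rho was 0.96 (exact permutation p = 0.00278, adjusted p = 0.0992), with p-values adjusted over the 100 relations of 10 genes with 10 marker lists. Without rats C and G, the farthest from the median of the marker differences, r was 0.96. The red blood cell markers gave r = 0.97 (exact permutation p = 0.000794, adjusted p = 0.0397) and rho = 0.93 (exact permutation p = 0.00675, adjusted p = 0.0992), with r = 0.95 without rats C and G. These were the only relations of the 100 with an adjusted p under 0.05 for Pearson's r, and none had one for Spearman's rho. Close behind for Rsad2 were the markers of T, B and NK cells (r = 0.94), skeletal muscle (0.85) and macrophages (0.82). Their exact permutation adjusted p were 0.0661, 0.0833 and 0.0929. Plasmacytoid dendritic cell markers gave 0.71, and those of glia, sensory neurons, endothelial cells and spinal cord gave -0.69, -0.31, -0.30 and -0.21. Within 1 time there were 3 or 4 rats, too few for a value.

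With the neutrophil marker level as a covariate, chosen after seeing the data, the Rsad2 difference over both times was 0.16 (SE 0.12). At 8 weeks it was 0.00 (SE 0.15) and at 6 weeks 0.34 (SE 0.16). Of the marker lists, the neutrophil list had the closest relation with Rsad2 in these same rats (r = 0.99). A smaller difference with this covariate follows from that relation and is no separate result. The part of neutrophils in the Rsad2 difference was not tested. With the same covariate the differences over both times of Irf7, Irf9, Irf1, Ifit2 and Ifit3 were -0.08, -0.01, -0.12, -0.03 and -0.12. Cmpk2, the neighbour of Rsad2 on chromosome 6 and itself an interferon-stimulated gene, was named for its position after its values were seen. It stood at 44.4, 28.1, 35.3 and 28.3 CPM on the surgical side of rats C, D, G and H, against 26.6, 35.1, 32.9 and 30.4 CPM on their control side. Its difference between the sides was 0.74, -0.32, 0.10 and -0.1 in rats C, D, G and H. In rats A, B and E it was -0.27, 0.46 and 0.07. That of Rsad2 was 3.03, -1.07, 2.38 and -0.94, and 0.42, 0.59 and 1.05. Cmpk2 belongs to the 50 other type I interferon-stimulated genes followed below. At 8 weeks 35 of these had a difference above 0 and 15 below. The highest was Ifit1 at 0.8 (SE 0.68), against 0.84 for Rsad2.

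**Figure D3:**
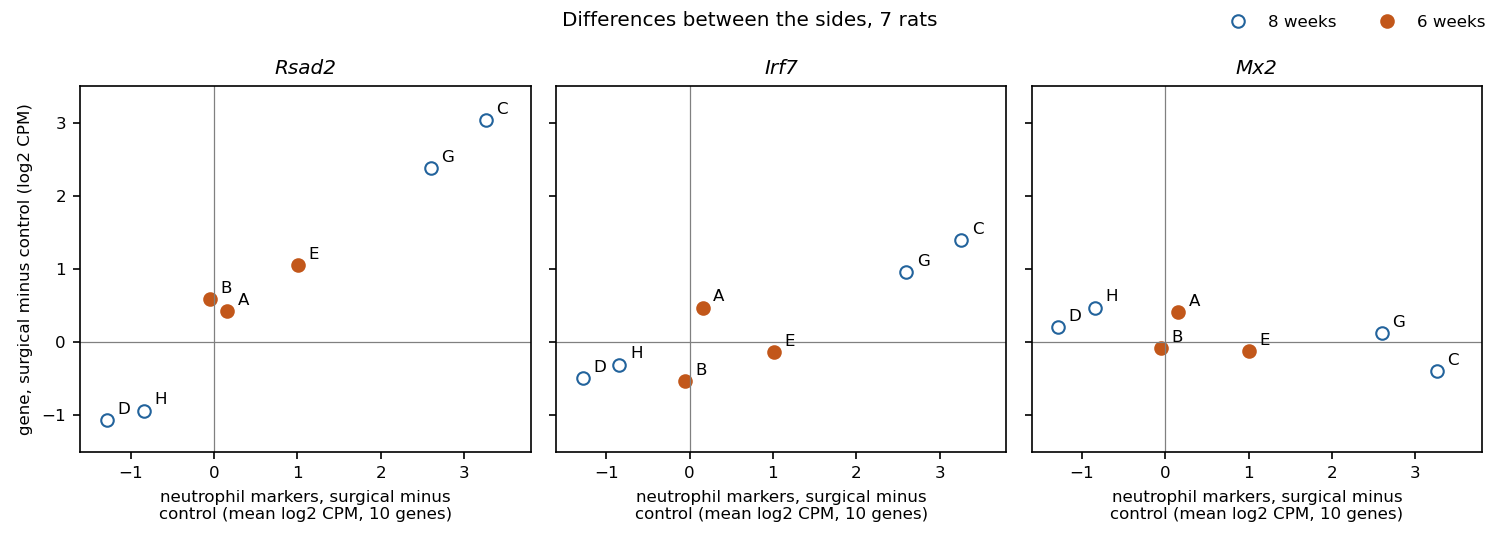
Difference between the sides (surgical minus control, log2 CPM) of Rsad2, Irf7 and Mx2 against the same difference of the mean of 10 neutrophil markers, with 1 lettered point per rat, open blue at 8 weeks and filled orange at 6 weeks. The Rsad2 points lie along a rising line from rats D and H to rats G and C, the Irf7 points rise less evenly, and the Mx2 points stay between -0.40 and 0.47.

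Within a rat the 10 genes tended to share a direction, and the direction differed between rats. All 10 were higher on the surgical side in rat G (median difference 0.48) and in rat A (0.42), and 9 of 10 in rat C (0.98), where Mx2 was the exception. In rat B 9 of the 10 were lower on the surgical side (median -0.65), with Rsad2 the exception, and in rat H 7 of the 10 were lower (-0.34). Rats D and E were even, with 5 of 10 higher in each and medians of -0.05 and -0.01. Over all genes tested, 44.0% to 54.2% were higher on the surgical side in each rat. On the TPM scale, where 33.5% to 80.7% of all genes were higher, the counts of the 10 genes higher on the surgical side were 8 in rat G, 10 in rat A, 7 in rat C, 5 in rat B and 3 in rat H. Among 50 other type I interferon-stimulated genes, 32 were higher in rat G, 38 in rat A and 41 in rat C, against 10 in rat B and 3 in rat H. Several marker lists had the same 5 signs in rats G, A, C, B and H. The macrophage markers differed by 0.64, 0.36, 1.85, -0.67 and -1.04, the neutrophil markers by 2.60, 0.16, 3.26, -0.05 and -0.84, the red blood cell markers by 2.25, 0.07, 3.33, -0.24 and -1.04, and the markers of T, B and NK cells by 1.18, 0.32, 1.47, -0.50 and -0.82. The skeletal muscle markers shared these 5 signs, at 1.92, 0.37, 8.98, -0.14 and -6.91. The sensory neuron markers had the opposite sign in each of the 5 rats, at -0.21, -1.90, -0.85, 1.19 and 0.67. In rats D and E, where the 10 genes were even, the neutrophil markers differed by -1.28 and 1.01 and the muscle markers by -1.76 and 4.91. There the red blood cell markers differed by -0.87 and 0.58, and those of T, B and NK cells by -0.51 and 0.27. The macrophage markers differed there by -0.17 and -0.16, and the sensory neuron markers by -0.03 and -0.05. The part of these cell types and of muscle in the shared direction of the 10 genes was not tested.

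**Figure D4:**
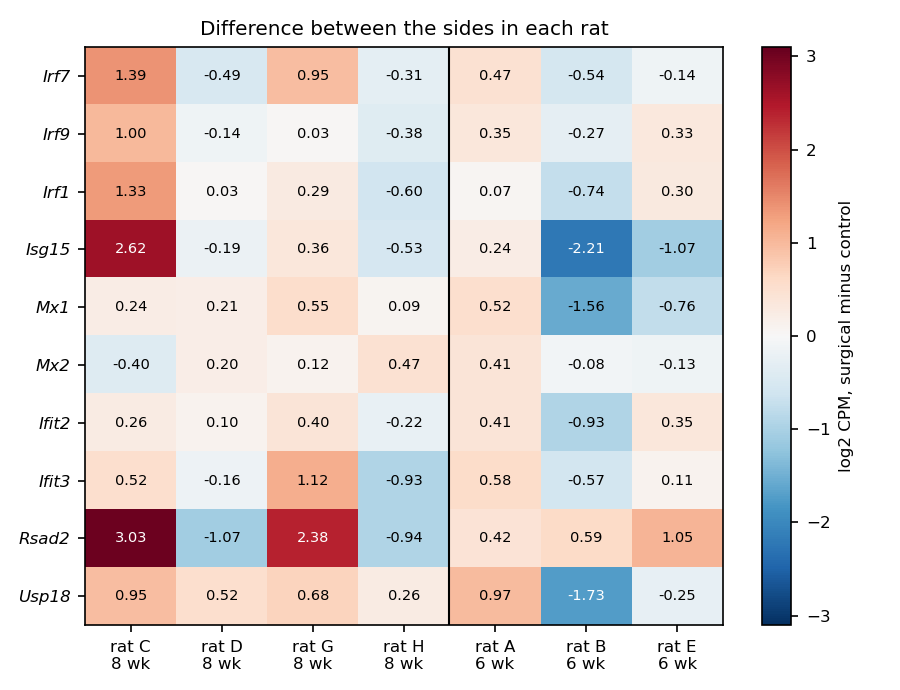
Difference between the sides (surgical minus control, log2 CPM) of each gene in each rat, red where the surgical side was higher and blue where it was lower, with the 8-week rats left of the line and the 6-week rats right of it. The columns of rats A and G are red throughout, and that of rat B is blue except for Rsad2 at 0.59.

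At 8 weeks, all 10 genes had a difference above 0, with a median of 0.27, although on the TPM scale (limma on log2(TPM + 1)) Irf9 and Mx2 were at -0.01 and -0.03. Among all genes 51.0% had a difference above 0. None of the 10 passed the test, as 0 of 17035 genes did (0%), with 180 at an unadjusted p under 0.05 (1.06%) and 4 called by DESeq2 (0.0148%). Rsad2 had the largest difference, 0.84 (SE 0.82), followed by Usp18 at 0.61 (SE 0.41), Isg15 at 0.53 (SE 0.63) and Irf7 at 0.39 (SE 0.35), each with an edgeR adjusted p of 1. For Usp18 and Mx1 4 of 4 rats had the higher surgical value, as they did for 2.65% of all genes tested. Without rat C the difference of Isg15 was -0.12.

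At 6 weeks, 6 of the 10 genes had a difference below 0 and the median was -0.06, although on the TPM scale Irf7, Irf1 and Ifit2 turned above 0, at 0.14, 0.08 and 0.14. The lowest were Isg15 at -1.05 (SE 0.72), Mx1 at -0.61 (SE 0.37) and Usp18 at -0.34 (SE 0.50), each with an edgeR adjusted p of 0.999. None of 17035 genes passed (0%), 546 had an unadjusted p under 0.05 (3.21%), and DESeq2 called 42 (0.272%), none of them among the 10. For Rsad2 3 of 3 rats had the higher surgical value, as they did for 12.3% of all genes tested, with a difference of 0.69 (SE 0.79). Without rat B the difference of Usp18 was 0.37. On the TPM scale the median over all genes was itself 0.21 at 6 weeks and -0.12 at 8 weeks, against -0.01 and 0.01 on the CPM scale.

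The change between the sides was also compared between the times, as that at 8 weeks less that at 6 weeks. The largest values were Isg15 at 1.58 (SE 0.96), Usp18 at 0.95 (SE 0.64) and Mx1 at 0.88 (SE 0.48), each with an edgeR adjusted p of 1. No gene of 17035 passed (0%), 252 had an unadjusted p under 0.05 (1.48%), and DESeq2 called 5 (0.0185%), none of them among the 10. The other 7 genes lay between -0.01 and 0.46. A different response of these genes at the 2 times was therefore not shown.

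**Figure D5:**
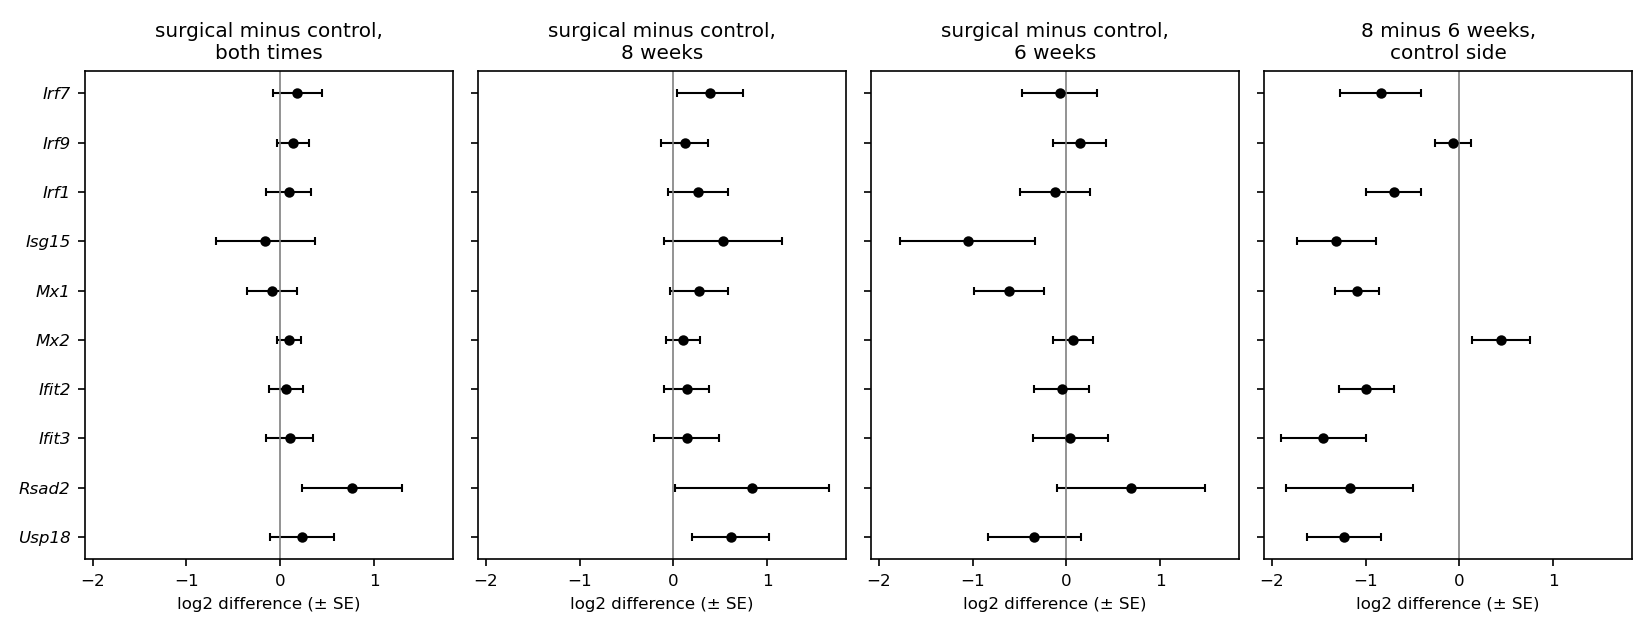
Log2 difference with its SE from edgeR for each gene, in 4 panels: surgical minus control over both times, at 8 weeks and at 6 weeks, and 8 minus 6 weeks on the control side. Error bars reach or cross 0 for most genes in the side comparisons, while in the control ganglia 9 of 10 points lie below 0, of which Irf9 lies above 0 on the TPM scale.

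The times were also compared on each side separately, between different rats. In control ganglia 9 of the 10 genes were lower at 8 weeks than at 6 weeks, with a median of -1.04 against -0.06 over all genes, although on the TPM scale Irf9 was higher, at 0.46. None passed edgeR's test, which called 25 of 16346 genes (0.153%). DESeq2 called 5 of the 10, namely Isg15, Mx1, Ifit2, Ifit3 and Usp18, and 2869 of 15550 genes (18.5%). At an unadjusted edgeR p under 0.05 there were 6 of the 10, and 31.2% of all genes tested. On the TPM scale the median of all genes was 0.55.

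Mx1 came nearest to the threshold. It stood at 11.9, 8.75, 8.92 and 13.8 CPM in the control ganglia of rats C, D, G and H at 8 weeks, against 17.7, 25.3 and 25.9 CPM in those of rats A, B and E at 6 weeks. The difference was -1.09 (SE 0.23, edgeR adjusted p = 0.0823), and the groups did not overlap. Ifit2 stood at 14.2, 10.9, 13.3 and 15.5 CPM in control ganglia at 8 weeks, against 21.4, 40.1 and 18 CPM at 6 weeks, a difference of -0.99 (SE 0.29, edgeR adjusted p = 0.11) without overlap. Usp18 stood at 2.93, 2.29, 2.79 and 3.71 CPM at 8 weeks, against 3.83, 11.4 and 5.30 CPM at 6 weeks, a difference of -1.23 (SE 0.39, edgeR adjusted p = 0.118) without overlap. Of the 10 genes, 3 did not overlap with 8 weeks lower, as did 12.7% of all genes tested.

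The other genes overlapped between the times in control ganglia. Ifit3 had the largest difference, -1.45 (SE 0.45, edgeR adjusted p = 0.114), with 7.96, 10.6, 7.41 and 14 CPM at 8 weeks, against 26.8, 43.3 and 10.9 CPM at 6 weeks. Isg15 differed by -1.31 (SE 0.42), Rsad2 by -1.17 (SE 0.68), Irf7 by -0.84 (SE 0.43) and Irf1 by -0.70 (SE 0.29), with edgeR adjusted p between 0.12 and 0.243. Irf9 was nearly level at -0.07 (SE 0.19), and Mx2 was the higher at 8 weeks, 0.44 (SE 0.31, edgeR adjusted p = 0.328).

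The count of called genes in this comparison changed with single animals. Without rat E, edgeR called 6388 genes, where the fit on all rats had tested 16346, so that calls were common among all genes. Irf1, Mx1, Mx2, Ifit2, Ifit3 and Rsad2 were among the 6388, at -0.91, -0.92, 0.85, -1.13, -1.75 and -1.56. Without rat A, B, C, D or G it called 0 genes and without rat H it called 1. Without rat B the differences of Irf7, Irf9 and Usp18 were -0.15, 0.13 and -0.62. The mean log2 CPM of the sensory neuron markers in control ganglia was 9.35 ± 0.32 (SD, n = 4) at 8 weeks and 8.25 ± 1.01 (SD, n = 3) at 6 weeks. That of the macrophage markers was 3.93 ± 0.50 at 8 weeks and 5.09 ± 0.81 at 6 weeks, and that of the neutrophil markers 6.07 ± 1.27 at 8 weeks and 7.22 ± 1.56 at 6 weeks. With the sensory neuron marker level as a covariate the difference of Mx1 was -0.99 (SE 0.27), that of Ifit3 -0.16 (SE 0.22), that of Irf1 0.01 (SE 0.22) and that of Rsad2 0.57 (SE 0.71). Isg15, Mx1, Ifit2, Ifit3 and Usp18 were below 0 under every alternative run, at most -0.51, -0.73, -0.24, -0.16 and -0.37. The part of cell content in the time difference was not tested beyond these covariates. The rats of the 2 times are different animals, so that time and animal cannot be told apart beyond the spread within each time.

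In surgical ganglia 8 of the 10 genes were lower at 8 weeks than at 6 weeks, with a median of -0.24 against 0.01 over all genes, although on the TPM scale 5 were lower and 5 higher. EdgeR called 0 of 16606 genes (0%), 1089 had an unadjusted p under 0.05 (6.56%), and DESeq2 called 2 (0.00784%), none of them among the 10. Ifit2 stood at 17.0, 11.7, 17.6 and 13.3 CPM in the surgical ganglia of rats C, D, G and H at 8 weeks, against 28.6, 21.1 and 22.9 CPM in those of rats A, B and E at 6 weeks. The groups did not overlap, as was so with 8 weeks lower for 5.12% of all genes, and the difference was -0.71 (SE 0.21, edgeR adjusted p = 0.671). Ifit3 stood at 11.5, 9.46, 16.3 and 7.30 CPM at 8 weeks, against 40.1, 29.2 and 11.8 CPM at 6 weeks, a difference of -1.29 (SE 0.44, edgeR adjusted p = 0.671), with rat E inside the 8-week range.

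As a description over libraries that share rats and composition, 36 of the 45 pairs of genes had a Pearson's r of log2 CPM above 0 and 26 had one above 0.5, with a median of 0.60. The closest pairs were Ifit2 with Ifit3 (0.85), Mx1 with Usp18 (0.84) and Ifit2 with Usp18 (0.84). Mx2 ran opposite to Irf1 (-0.66), Irf7 (-0.63) and Ifit3 (-0.63). Among all 17034 other genes tested, those with a pattern most like Irf7 were Ly6c (0.96), Alkbh1 (0.94), Eif2ak1 (0.93), Cotl1 (0.93), Taldo1 (0.92), Cfp (0.92), Sap30 (0.92) and Slc11a1 (0.91), together with a pair of genes without a symbol. None of the other members was among them. Rsad2 was at rank 833 and Irf1 at rank 885, both with r = 0.81, and Ifit3 was at rank 1230 with 0.78. Ifit2, Irf9, Usp18, Isg15 and Mx1 were at ranks 2863, 2972, 3309, 4130 and 6482, and Mx2 at rank 14057 with -0.63.

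Interferons themselves were barely detected. Of 18 listed ligands and receptor chains, 14 were analysed here, and 8 of those were ligands that failed the filter on low counts. Ifna1, Ifnl1 and Ifnl3 had 0 counts in all 14 libraries, where a count of 0 allows up to 3 counts in a library, and Ifna4, Ifnb1, Ifng, Ifnk and Ifne reached at most 2, 2, 2, 3 and 4 counts in any library. The 6 receptor chains were all tested and none passed, 4 with a difference above 0 and 2 below over both times. Ifngr1, a chain of the interferon gamma receptor, had the highest mean, 48.0 ± 5.79 TPM (SD, n = 14 libraries), and differed by -0.10 (SE 0.12). Ifnar1, a chain of the type I receptor, had 21.8 ± 4.81 TPM and differed by 0.10 (SE 0.10), and Ifnlr1, a chain of the lambda receptor, differed by 0.22 (SE 0.23).

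The kinases, STAT factors and inhibitors downstream of the receptors were followed in 13 genes. All 13 had a difference above 0 over both times, between 0.01 and 0.34, and none passed the test, with 0% of all genes called. Jak2, a kinase of the interferon gamma receptor, differed by 0.18 (SE 0.16) and Tyk2, a kinase of the type I receptor, by 0.17 (SE 0.16). Stat3 and Jak1 had the highest means, 50.8 and 47.5 TPM, and differed by 0.04 (SE 0.14) and 0.11 (SE 0.16). Among 18 sensors and inducers of interferon, 13 were above 0 and 5 below, and none passed. Tlr9, a receptor for unmethylated DNA, had the smallest unadjusted p, 0.0493, with a difference of 0.70 (SE 0.30, edgeR adjusted p = 1) at a mean of 1.16 CPM on the surgical side and 0.64 CPM on the control side. Irf8, a factor of myeloid cells, differed by 0.44 (SE 0.33), Irf3, which switches on interferon genes, by -0.06 (SE 0.13), and Tbk1, its kinase, by 0.03 (SE 0.09).

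Of 50 other type I interferon-stimulated genes, 27 were above 0 and 23 below over both times, and none passed the test. In the pair with the smallest unadjusted p, Ifi27 and Ube2l6, 7 of 7 rats had the lower value on the surgical side, which none of the 10 genes above showed. Ifi27, a small membrane protein of mitochondria, stood at 233, 298, 334, 319, 176, 199 and 282 CPM on the surgical side of rats C, D, G, H, A, B and E, against 314, 319, 463, 353, 267, 327 and 395 CPM on their control side. The difference was -0.42 (SE 0.12, unadjusted p = 0.00835, edgeR adjusted p = 1). Ube2l6, the conjugating enzyme for Isg15, had 15.5 ± 2.13 CPM on the surgical side and 20 ± 2.26 CPM on the control side (SD, n = 7 each), a difference of -0.37 (SE 0.13, unadjusted p = 0.0186, edgeR adjusted p = 1). A lower surgical value in 7 of 7 rats was found for 0.746% of all genes tested. Ifi27l2b, a relative of Ifi27 that may share reads with it, had the highest mean of the list, 726 TPM, and differed by -0.29 (SE 0.17).

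Of 20 genes typical of the interferon gamma response, 12 were above 0 and 8 below over both times, and none passed. Cxcl11, a chemokine for T cells, differed by -0.78 (SE 0.53) at 0.172 CPM on the surgical side and 0.329 CPM on the control side. Cd274, an inhibitory ligand for T cells, differed by 0.25 (SE 0.25), Serping1, the inhibitor of complement component C1, by -0.35 (SE 0.36), and Psmb8, a subunit of the immunoproteasome, by 0.07 (SE 0.33). Between the times in control ganglia the type I, gamma-type and sensor lists followed the 10 genes. Of these lists, 43 of 50, 18 of 19 and 16 of 18 genes were lower at 8 weeks, with medians of -0.54, -0.99 and -0.81. On the TPM scale, whose median of all genes was raised, 23 of 50, 17 of 20 and 12 of 18 were lower. At an unadjusted edgeR p under 0.05, 16, 13 and 7 were lower, where 31.2% of all genes had such a p in either direction. None had an edgeR adjusted p under 0.05. DESeq2 called 7, 9 and 2 genes of these lists, against 18.5% of all genes. The receptor chains did not follow, with 3 higher, 3 lower and a median of 0.02. Of the 13 signalling genes 9 were lower and 4 higher, with a median of -0.24, and on the TPM scale 4 were lower and 9 higher.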

How the data were processed

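Ganglia of both sides of 7 rats gave 14 libraries. The authors deposited estimated counts per gene, given as whole numbers, and TPM, made with FastQC, Trim Galore and Salmon, per the submitters' processing notes, which also name DESeq2. Versions, genome build and annotation are not given in the sources used here. The labels name both polyA RNA and ribosomal depletion, which differ in the transcripts they keep. Rat letters follow the sample titles, and the letters C and D are exchanged in the library names. In the titles of rat C, replicate 1 is given for the surgical and replicate 2 for the control library, and the letter was used to pair them.

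Estimated counts were fitted in edgeR 4.0.16 (R 4.3.3; filterByExpr with a minimum count of 10, TMM scaling, robust quasi-likelihood test, two-sided) over all genes, with rat as a block between sides (6 residual degrees of freedom over both times, 5 at each time) and without one between times (5). SE is the absolute log2 difference divided by the square root of F. CPM are TMM-scaled, and log2 CPM of single libraries use a prior count of 2. DESeq2 1.42.0, limma 3.58.1 on log2(TPM + 1) and log2(TPM + 0.1), other filters, left-out rats and marker covariates were the alternatives. Correlations over rats used exact permutation tests, two-sided. The pairing comes from the labels, which put both sides of 1 rat under 1 letter. Deviations from the group means correlated between the sides of a rat at 0.26, -0.12, -0.41, -0.09, 0.75, 0.13 and -0.31 in rats A, B, C, D, E, G and H. No pair of libraries of a group agreed within sampling noise (chi-square per gene 28.6 to 490). The tests were run on simulated counts first.

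The genes and lists were chosen with earlier results of these data known. Named beside the 10 are, per list, the pair with the smallest p over both times and the pair with the highest mean TPM, and the 10 genes most correlated with Irf7. Of the listed entries, 13 were matched to no symbol and are not analysed here.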

Additional observations from a re-analysis of the deposited data

How the results depend on the processing

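No alternative brought any of the 10 genes past the threshold between the sides. Counts of called genes moved as follows. DESeq2 called 4 genes over both times, 4 at 8 weeks, 42 at 6 weeks, 5 for the difference between the times, 2 for surgical ganglia over time and 2869 for control ganglia over time. For surgical ganglia over time limma on TPM called 4 genes (pseudocount 0.1), 3 (pseudocount 1) and 4 (pseudocount 1, no filter), and for control ganglia over time 14, 8 and 8. There the sensory neuron covariate gave 40 genes, the neutrophil covariate 56, and leaving out rats B, C and H, 3 of the 4 rats with raised muscle or spinal cord markers (rat E was kept), 0, and leaving out each rat in turn 0 to 6388. Without the replicate block 2 genes passed at 6 weeks, and Isg15 over both times was 0.10 in place of -0.16. The block changed no other call, and with the control libraries of rats C and D exchanged in the pairing, 0 genes passed in each side comparison.

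Signs of small differences changed as follows. Over both times the neutrophil covariate gave Irf7 -0.08, Irf9 -0.01, Irf1 -0.12, Ifit2 -0.03 and Ifit3 -0.12, the sensory neuron covariate gave Ifit2 -0.01, and leaving out rats B, C and H gave Mx1 0.13. At 8 weeks the neutrophil covariate gave Irf9 -0.07, Irf1 -0.01 and Ifit3 -0.15, leaving out rats B, C and H gave Irf9 -0.06, and limma on TPM gave Irf9 -0.02, -0.01 and -0.01 and Mx2 -0.04, -0.03 and -0.03 (pseudocounts 0.1, 1, and 1 with no filter). At 6 weeks limma on TPM gave, in the same order, Irf7 0.15, 0.14 and 0.14, Irf1 0.10, 0.08 and 0.08, and Ifit2 0.16, 0.14 and 0.14. Leaving out rats B, C and H gave Irf7 0.17, Irf1 0.18, Ifit2 0.38 and Usp18 0.37, and both covariates gave Ifit3 -0.08. For control ganglia over time limma on TPM gave Irf9 0.50, 0.46 and 0.46 and, with pseudocount 0.1, Irf1 0.00. The sensory neuron covariate gave Irf7 0.11, Irf9 0.28, Irf1 0.01, Mx2 -0.10 and Rsad2 0.57, the neutrophil covariate gave Irf9 0.09, and leaving out rats B, C and H gave Irf9 0.07. The cause of these changes was not tested.

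Leaving out each rat in turn, these differences spanned 0. Over both times Irf7 ran from -0.01 to 0.32, Irf9 from -0.01 to 0.22, Irf1 from -0.11 to 0.24, Isg15 from -0.57 to 0.20, Mx1 from -0.20 to 0.15 and Ifit3 from -0.07 to 0.27. At 8 weeks Irf9 ran from -0.16 to 0.29, Irf1 from -0.09 to 0.55, Isg15 from -0.12 to 0.94, Mx2 from -0.03 to 0.26 and Ifit3 from -0.19 to 0.50. At 6 weeks Irf7 ran from -0.34 to 0.17, Irf1 from -0.35 to 0.19, Mx2 from -0.10 to 0.15, Ifit2 from -0.29 to 0.39, Ifit3 from -0.23 to 0.35 and Usp18 from -1.01 to 0.37. For control ganglia over time Irf9 ran from -0.15 to 0.13.

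With 3 or 4 rats a time, only large and even differences can pass.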
